A study of Mus musculus with 6 samples.

Results

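The adipose stromal progenitor surface genes measured here were 10 genes used to recognise or sort the stem-like stromal cells of fat: the growth factor receptor genes Pdgfra and Pdgfrb, Dpp4, Pi16, Cd34, Ly6a, Dlk1, Icam1, F3 and Cd55. The list was drawn up by gene name, and every probe annotated to a RefSeq transcript of a member was taken, which gave 13 of the 55681 probes and 10 of the 21368 named genes of the array. Cd34, Dlk1 and F3 had 2 probes each, and the other 7 members had 1 probe each. RNA came from the inguinal white adipose tissue (iWAT), a fat pad under the skin of the groin, of wild-type (WT) mice and Zip13-KO littermates of 10 weeks of age, in 3 samples of each genotype, on a C57BL/6J background of at least 7 generations of backcrossing. In Zip13-KO mice, exons 6 to 8 of the gene of the zinc transporter ZIP13 were replaced by a Neo cassette in every cell of the body, so stromal, adipocyte, blood and vascular cells all carried the deletion, and its place of action cannot be read from these arrays. All mice received powdered feed because the Zip13-KO mice have missing teeth, and the sex and diet of the mice behind the arrays are not given in the sources used here. The 6 samples are labelled as separate replicates, not stated to be 1 mouse each, so the p-values measure the spread between these samples.

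Fat cells do not divide, and new adipocytes arise from stromal cells that carry PDGF receptor alpha on their surface. In the subcutaneous fat of the mouse, cells bearing DPP4 and PI16 lie in the connective tissue around the fat lobules and give rise to committed preadipocytes bearing ICAM1, while a further stromal population bearing F3 (CD142) was described as a restraint on adipogenesis. None of the 10 proteins belongs to progenitors alone: CD34, LY6A and ICAM1 also stand on endothelium, PDGF receptor beta on mural cells (pericytes and vascular smooth muscle), and DPP4 and ICAM1 on blood cells. Whole iWAT was measured, so that fewer cells of a type and less RNA per cell cannot be told apart.

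Each array carried a single labelled RNA, and spot brightness stands for the amount of transcript. Values are log2 of the background-corrected intensity after quantile normalization, so 1 unit is a doubling, and levels of different genes are not compared because each probe binds with its own strength. A gene was called when limma gave a Benjamini-Hochberg adjusted p under 0.05 over the 15306 genes tested and the change was over 0.58 on the log2 scale (1.5-fold). Of the spots, 62.5% to 63.2% were well above background on the WT arrays and 58.8% to 60.4% on the Zip13-KO arrays, and none was saturated. Before normalization, the median processed intensity was 39.2 to 40.6 in the WT and 33.2 to 35.0 in Zip13-KO. Slc39a13, the gene of ZIP13, lay between 10.72 and 11.29 in the WT and between 6.47 and 6.76 in the Zip13-KO arrays, a 20.1-fold lower level. Where its probe lies against the deleted exons was not tested. All 8 adipocyte markers (among them Adipoq and Plin1) and all 10 members were well above background on all 6 arrays.

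Stromal progenitor genes were lower in the Zip13-KO iWAT for some members and not for others. Ly6a, Dpp4 and Pdgfra were called lower, by 1.37, 1.05 and 0.65 on the log2 scale, and no member was called higher. Over all genes, 8.38% were called lower and 10.3% called higher, and 3 of the 10 members were called lower. The median difference of the 10 members was -0.61, with 8 of them below 0, against -0.00051 over all genes tested. For 6 members (Pdgfra, Dpp4, Pi16, Cd34, Ly6a and Icam1) the 3 Zip13-KO arrays were all lower than the lowest WT array, which was the case for 25.9% of all genes. For Dlk1 they were all higher than the highest WT array, which was the case for 29.2% of all genes. The genotypes overlapped for Pdgfrb, F3 and Cd55, and for 44.9% of all genes.

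**Figure D1:**
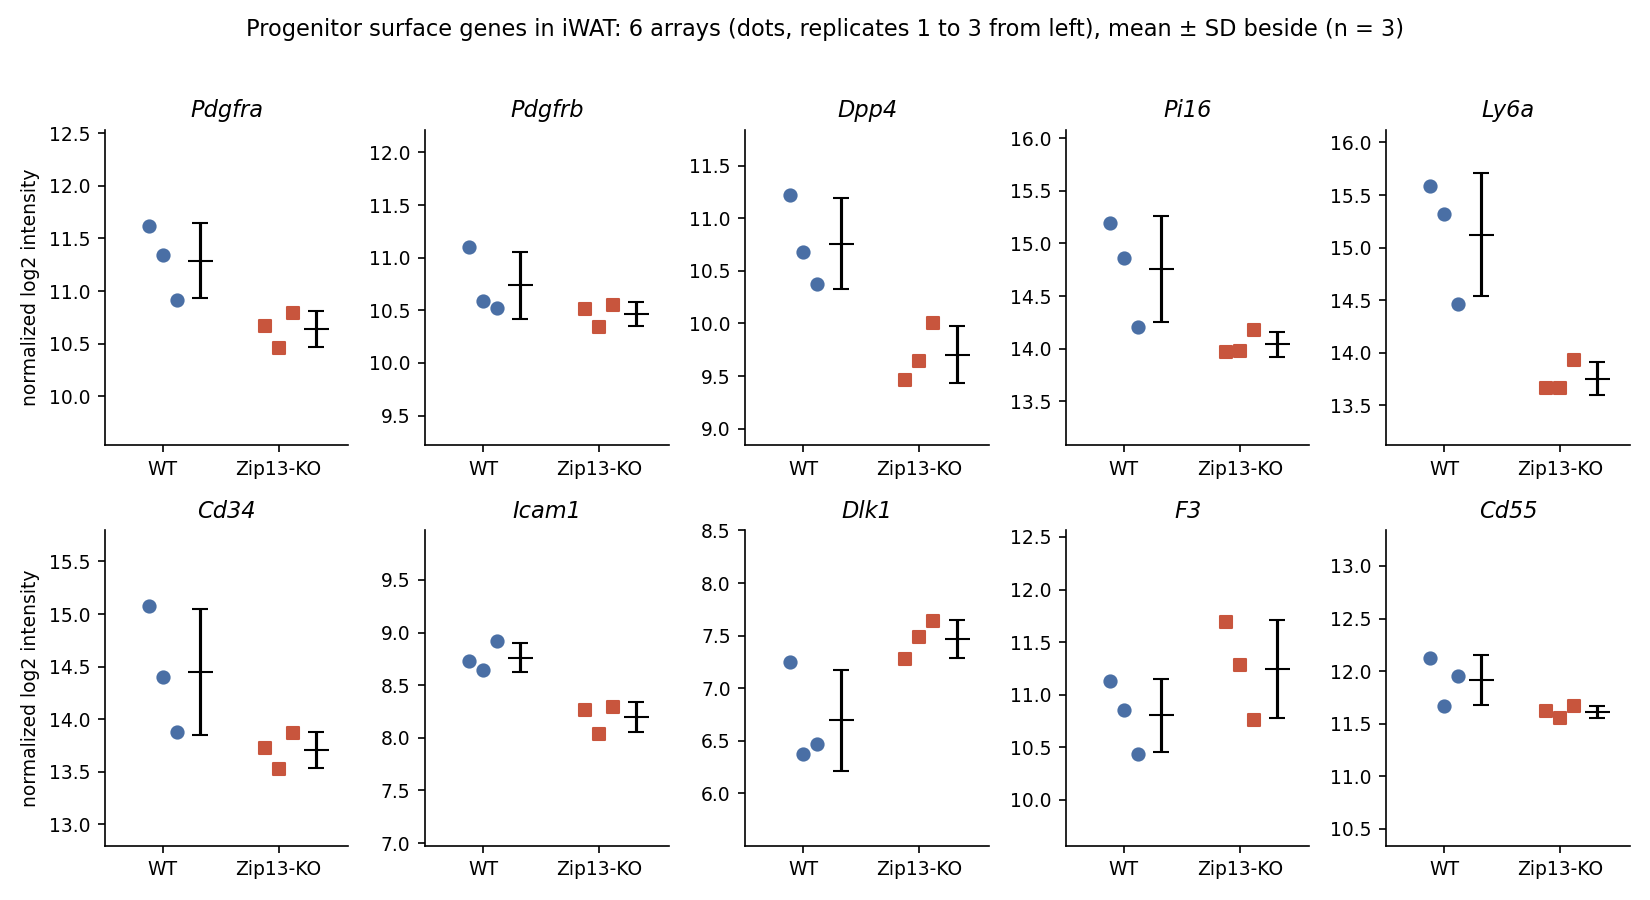
Normalized log2 intensity of the 10 progenitor surface genes in 3 WT (blue circles) and 3 Zip13-KO (red squares) arrays, replicates 1 to 3 from left to right, with the mean and SD beside them; each panel has its own range on the vertical axis. Ly6a, Dpp4 and Pdgfra show separated genotypes, F3 and Pdgfrb overlap, and WT replicate 1 is the highest WT array in 9 of the 10 panels.

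The spread within the WT was part of every comparison. WT replicate 1 was the highest WT array for 9 of the 10 members, all but Icam1, against 35.8% of all genes. WT replicate 3 was the lowest for 7 members (Pdgfra, Pdgfrb, Dpp4, Pi16, Cd34, Ly6a and F3), against 31.0% of all genes. For 8 members the SD of the WT exceeded that of the Zip13-KO arrays, as it did for 68.9% of all genes. Icam1 instead was highest in WT replicate 3, and Dlk1 and Cd55 were lowest in WT replicate 2. Of the 6 arrays, all on 1 slide, the 3 WT arrays and Zip13-KO replicate 1 lay in slide column 1 and Zip13-KO replicates 2 and 3 in column 2. With the column as a term, the genotypes are compared within column 1 only, where Zip13-KO has a single array: Ly6a then differed by -1.46 (adjusted p = 0.108), Dpp4 by -1.29 (adjusted p = 0.0921) and Pdgfra by -0.62 (adjusted p = 0.223), and no member was called.

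Pdgfra and Pdgfrb encode the receptors for the platelet-derived growth factors, the alpha form marking nearly all adipose progenitors and the beta form progenitors and mural cells alike. For Pdgfra the WT arrays gave 11.62, 11.34 and 10.91 and the Zip13-KO arrays 10.67, 10.45 and 10.79. The genotypes did not overlap, with a gap of 0.12 between WT replicate 3 and Zip13-KO replicate 3. Pdgfra fell by 0.65 ± 0.19 on the log2 scale (SE, n = 3 per genotype, adjusted p = 0.0457), a 1.57-fold lower level with a 95% confidence interval of 1.13 to 2.18. Its probe is printed 10 times on each array, and the SD among these spots was 0.051 to 0.079 within an array, against an SD of 0.36 among the 3 WT arrays and 0.17 among the 3 Zip13-KO arrays. On Zip13-KO replicate 1, 2 of the 10 spots were marked as outliers and left out. The Pdgfra call was lost without any 1 of WT replicates 1 and 2 and the 3 Zip13-KO arrays (adjusted p 0.0759 to 0.134).

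Pdgfrb read 11.10, 10.59 and 10.52 in the WT and 10.51, 10.34 and 10.55 in Zip13-KO. Its genotypes overlapped, with WT replicate 1 standing apart above the other 5 arrays, and the difference of -0.27 (95% confidence interval -0.68 to 0.14) did not pass the test (adjusted p = 0.247). Without WT replicate 1 it was -0.09 (adjusted p = 0.484). Among the genes of the ligands, Pdgfb, the ligand that endothelium uses to recruit mural cells, rose from 10.08, 10.44 and 10.34 in the WT to 11.23, 11.12 and 10.97 in Zip13-KO, by 0.82 (adjusted p = 0.00822). Pdgfa differed by 0.24, Pdgfc by -0.33 and Pdgfd by 0.11, and none of the 3 passed the test (adjusted p 0.0785 to 0.587). The receptor-like gene Pdgfrl gave 0.18 (adjusted p = 0.777).

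Mural cells share Pdgfrb, so their markers were set beside it. All 10 mural markers lay above 0 in the Zip13-KO comparison (median 0.47), and 3 were called higher: Cspg4, the NG2 proteoglycan of pericytes, by 1.42, Rgs5 by 0.71 and Kcnj8, a potassium channel gene, by 0.70. Tagln, a smooth muscle gene, showed the smallest difference of 0.05. The summed mural level, as linear normalized intensity, was 17455 to 23810 in the WT and 25374 to 25770 in Zip13-KO. Such sums, here and below, are set mostly by the brightest probes of a list and do not measure the number of cells. What part mural cells have in the Pdgfrb value was not tested.

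Dpp4 and Pi16 mark the interstitial progenitors. Dpp4, a dipeptidase of the cell surface, gave 11.22, 10.68 and 10.37 in the WT and 9.47, 9.65 and 10.002 in Zip13-KO. All 3 Zip13-KO arrays lay below the lowest WT array by at least 0.37. Dpp4 fell by 1.05 ± 0.25 (SE, n = 3 per genotype, adjusted p = 0.0227), a 2.07-fold lower level with a 95% confidence interval of 1.37 to 3.14. The call was lost without WT replicate 2 (adjusted p = 0.0514), Zip13-KO replicate 1 (adjusted p = 0.0782) or Zip13-KO replicate 2 (adjusted p = 0.0734). Pi16, a secreted or membrane-anchored peptidase inhibitor, gave 15.20, 14.86 and 14.20 in the WT and 13.97, 13.98 and 14.18 in Zip13-KO. These genotypes were separated by a gap of 0.03 only, and the difference of -0.71 (95% confidence interval -1.32 to -0.11) did not pass the test (adjusted p = 0.0701).

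Of 11 other genes of the interstitial progenitors, 1 was called lower and none higher, against 8.38% and 10.3% of all genes, and the median difference was -0.44. Anxa3, a calcium-dependent membrane-binding protein gene, was the called gene, at 11.67, 11.67 and 11.28 in the WT and 10.72, 10.72 and 10.94 in Zip13-KO (difference -0.75, adjusted p = 0.0118). Wnt2, a secreted signal used as a landmark of the DPP4-bearing cells, read 6.35, 4.90 and 3.73 in the WT and stayed near background on the 3 Zip13-KO arrays, where it was not well above it, and its difference did not pass the test (adjusted p = 0.0734). Wnt2 passed the background filter through the WT arrays alone. With the Zip13-KO level as a bound, the WT mean was at least 2.43-fold higher, which rests on WT replicates 1 and 2, since replicate 3 was close to the level used for the bound. The bound sets the WT mean against the higher of the probe's own value and the dimmest well-measured probe on each Zip13-KO array. At the other end, Dact2 gave 0.53 (adjusted p = 0.142). Markers of lymphocytes and lymph node, which also hold DPP4-bearing T cells, all lay below 0 (9 of 9 tested, median -0.41, from Cxcl13 at -0.63 to Cr2 at -0.04) with none called, and their summed level was 58380 to 77096 in the WT and 47121 to 51203 in Zip13-KO. Their part in the Dpp4 value was not tested.

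Ly6a and Cd34 encode stem-cell type antigens, SCA-1 and the sialomucin CD34, both used to sort adipose progenitors. Ly6a gave 15.58, 15.32 and 14.46 in the WT and 13.67, 13.66 and 13.94 in Zip13-KO. The gap between the genotypes, 0.53, was the widest among the members. Ly6a fell by 1.37 ± 0.29 (SE, n = 3 per genotype, adjusted p = 0.0174), a 2.58-fold lower level with a 95% confidence interval of 1.58 to 4.21, and the call was lost without Zip13-KO replicate 1 (adjusted p = 0.0631) or 2 (adjusted p = 0.0613). Ly6c1, a close relative on monocytes and endothelium, fell by 0.95 (adjusted p = 0.0237), and cross-binding between probes of this gene family was not tested.

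Cd34 gave 15.07, 14.40 and 13.88 in the WT and 13.73, 13.52 and 13.87 in Zip13-KO. The lowest WT and the highest Zip13-KO array were only 0.01 apart, and the difference of -0.75 (95% confidence interval -1.47 to -0.02) did not pass the test (adjusted p = 0.0983). It was -0.44 without WT replicate 1 (adjusted p = 0.139) and -1.03 without WT replicate 3 (adjusted p = 0.0295). The second Cd34 probe gave -0.84 with overlapping genotypes. Endothelium carries both antigens, and its markers were set beside them. All 10 were above 0 (median 0.47), and Robo4, Cldn5, Cdh5 and Esam, genes of vessel guidance and endothelial junctions, were called higher by 0.83, 0.78, 0.77 and 0.64. Kdr, the VEGF receptor gene, showed the smallest value, 0.13. The summed endothelial level was 14465 to 17151 in the WT and 23984 to 25039 in Zip13-KO, and its part in the Ly6a and Cd34 values was not tested.

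Icam1 and Dlk1 are tied to the preadipocyte stage, Icam1 as an adhesion molecule of committed cells and Dlk1 as the classical preadipocyte factor that holds back differentiation. Icam1 gave 8.73, 8.64 and 8.92 in the WT and 8.27, 8.03 and 8.29 in Zip13-KO. The genotypes were 0.35 apart, and Icam1 had the lowest adjusted p of all members (0.0148), but its difference of -0.56 ± 0.11 (SE, n = 3 per genotype), a level 1.48-fold lower, was short of the fold needed for a call. Dlk1 gave 7.25, 6.37 and 6.47 in the WT and 7.28, 7.49 and 7.64 in Zip13-KO. WT replicate 1 reached to within 0.03 of the lowest Zip13-KO array, and the difference of 0.77 ± 0.25 (SE, n = 3 per genotype) did not pass the test (adjusted p = 0.0559). Without WT replicate 1, Dlk1 was called higher by 1.05 (adjusted p = 0.00849), the only call in 20 other settings. Over these settings the difference ran from 0.46, with the normexp background correction of the median signal, to 1.05. The second Dlk1 probe, dimmer and well above background on 2 of the 3 WT arrays, gave 0.84.

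**Figure D2:**
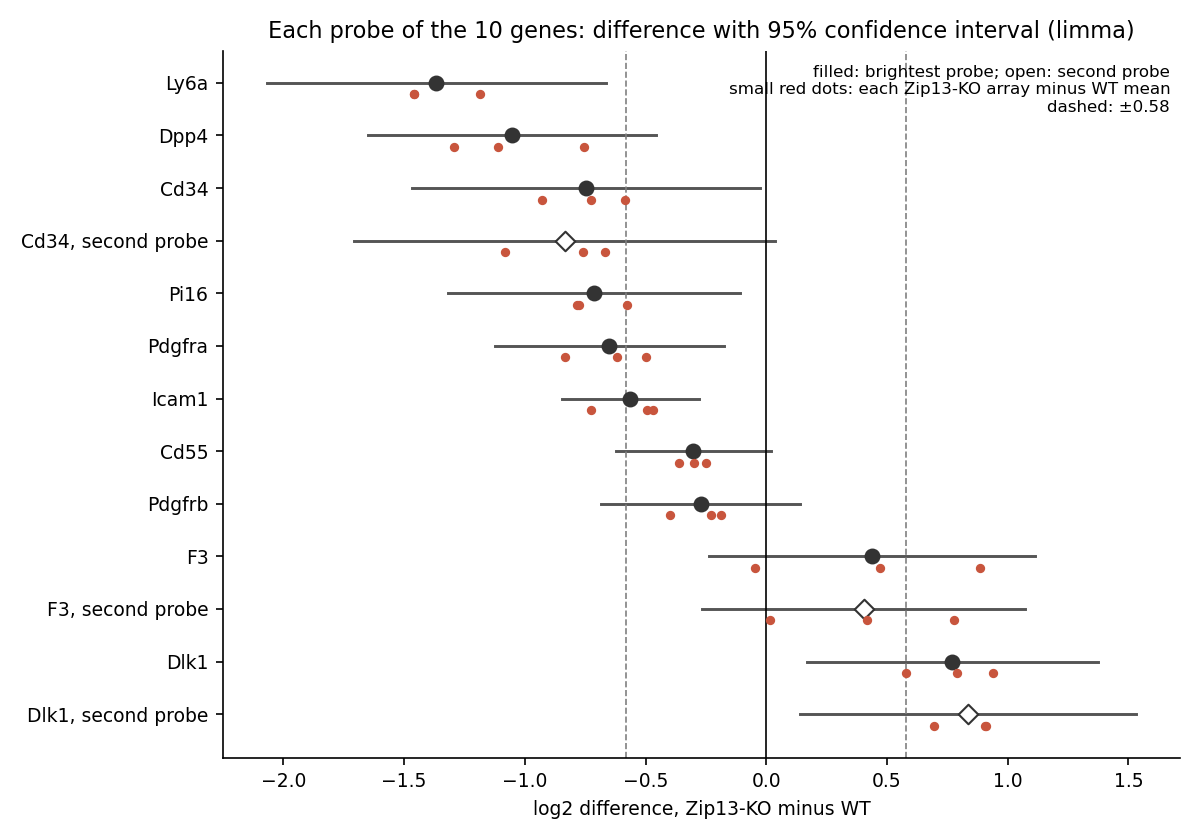
Zip13-KO minus WT difference (log2) of each of the 13 probes from the fit over all probes, with its 95% confidence interval; filled points are the brightest probe of a gene, open diamonds a second probe, small red dots the 3 Zip13-KO arrays less the WT mean, and dashed lines mark 0.58 in either direction. The second probes of Cd34, F3 and Dlk1 lie on the same side of 0 as the first.

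In the fit over all 33046 kept probes, 2 of the 13 member probes were called lower, those of Ly6a and Dpp4, and none was called higher, against 7.13% of all probes called lower and 8.34% called higher. The Pdgfra probe then had an adjusted p of 0.0535. The second probes gave differences close to the first, at -0.84 against -0.75 for Cd34, 0.40 against 0.44 for F3 and 0.84 against 0.77 for Dlk1.

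Committed preadipocyte genes other than the members lay above 0 for 12 of the 14 tested, against 7645 of all 15306 genes. Of these genes, 5 were called higher and none lower, against 10.3% and 8.38% of all genes, and the median was 0.47. Pparg, the master regulator of adipogenesis, rose from 12.57, 13.06 and 13.19 in the WT to 14.29, 13.71 and 14.20 in Zip13-KO, by 1.13 (adjusted p = 0.0141). Hsd11b1, which activates glucocorticoid, rose by 0.92 (adjusted p = 0.0211), Cebpa, a partner of PPARG, by 0.82 (adjusted p = 0.028), Cd36, a fatty acid receptor gene, by 0.71 (adjusted p = 0.0266) and Zfp423, a preadipocyte commitment factor, by 0.68 (adjusted p = 0.0067). The Zfp423 value is that of the brightest of its 3 probes, and Zfp423 was not called when the kept probes of a gene were averaged. Apoe had the lowest difference, -0.19. Mature adipocytes also express Pparg, Cebpa, Hsd11b1 and Cd36, and all 8 adipocyte markers lay above 0 (median 0.64), with Plin1, a coat protein of the lipid droplet, higher by 0.83 and Lipe, the hormone-sensitive lipase gene, by 0.77. Lep, the leptin gene, had the largest value, 1.07 (adjusted p = 0.309), and Adipoq the smallest, 0.41. The summed adipocyte level was 264173 to 383556 in the WT and 462185 to 482358 in Zip13-KO, and its part in the preadipocyte list was not tested.

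Icam1 binds the leukocyte integrins, and their genes were measured beside it. Itgb2, the shared beta chain of these integrins, fell from 11.80, 11.83 and 11.81 in the WT to 10.64, 10.60 and 10.69 in Zip13-KO, by 1.17 (adjusted p = 0.00277), with arrays of a genotype no more than 0.10 apart. Itgal, the alpha chain of LFA-1, gave -0.43 (adjusted p = 0.0517) and Itgam, that of Mac-1, -0.17 (adjusted p = 0.233). The Itgam value is that of the brightest of its 3 probes, and Itgam was called lower when the kept probes of a gene were averaged. Of the 12 markers of macrophages and other myeloid cells, which also bear ICAM1, 10 were called lower (median -1.31), led by the Fc receptor gene Fcgr1 (-2.57), Cd68 (-1.87), Adgre1 (-1.64) and the complement gene C1qb (-1.60), with Mertk nearest to 0 at -0.55. Their summed level was 100278 to 166437 in the WT and 42783 to 60431 in Zip13-KO, and their part in the Icam1 value was not tested. For Dlk1, whose protein acts against Notch signalling, Notch1 gave -0.23 and Notch2 -0.38 (adjusted p = 0.0811 and 0.0335, both short of the fold for a call), the protease gene Adam17 gave 0.12, and Meg3, the noncoding neighbour of Dlk1 in its imprinted cluster, gave -0.86 (adjusted p = 0.31). Rtl1, of the same cluster, was not tested because its probe did not pass the background filter.

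F3 encodes tissue factor, the receptor that starts coagulation and the surface mark of the adipogenesis-restraining stromal cells. It gave 11.13, 10.85 and 10.44 in the WT and 11.69, 11.28 and 10.76 in Zip13-KO. The genotypes overlapped, the spread was the widest of all members in Zip13-KO (SD 0.47), and the difference of 0.44 (95% confidence interval -0.24 to 1.11) did not pass the test (adjusted p = 0.258). It was 0.21 without Zip13-KO replicate 1, 0.68 without Zip13-KO replicate 3 and 0.25 without WT replicate 3. With the replicate number as a block, the SE of the F3 difference was 0.09 against 0.28, and its adjusted p was 0.0464, but the difference was short of the fold for a call. Of the clotting factors that F3 engages, F10 fell from 8.52, 9.71 and 8.11 in the WT to 4.86, 5.58 and 5.67 in Zip13-KO, by 3.41 (adjusted p = 0.00638), and F7 was at 6.74, 6.56 and 6.77 in the WT and did not reach well above background in Zip13-KO, at least 7.89-fold lower (adjusted p = 0.00128). F7 passed the background filter through the WT arrays alone, so its p-value uses Zip13-KO values that were not well measured. Of the inhibitors, Tfpi2 fell by 1.48 (adjusted p = 0.0405), while Tfpi gave -0.42 (adjusted p = 0.151). Tfpi2 was dim, at 6.60, 5.41 and 4.90 in the WT and 4.02, 4.06 and 4.40 in Zip13-KO. Its call was lost with the deposited values, and without WT replicate 2 or any 1 of the Zip13-KO arrays. Macrophages also make F7 and F10, and the part of the lower myeloid markers in these values was not tested.

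Of 12 other genes of the F3-bearing stromal cells, Abcg1, a cholesterol exporter also found in macrophages, fell by 0.81 (adjusted p = 0.0303), and Bmp3, a BMP family member, rose by 0.80 (adjusted p = 0.0156). The other 10 were not called, so that 16.7% of the list was called, against 18.7% of all genes. The median of the list was -0.12.

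Cd55 encodes decay-accelerating factor, which protects cells from complement and appears on interstitial progenitors. Its values were 12.13, 11.66 and 11.96 in the WT and 11.62, 11.56 and 11.67 in Zip13-KO. Zip13-KO replicate 3 overlapped with WT replicate 2, and the difference of -0.30 (95% confidence interval -0.62 to 0.01) did not pass the test (adjusted p = 0.116). It was -0.20 without WT replicate 1 (adjusted p = 0.222). The paralog Cd55b gave -0.10, C3 -0.03 and the complement regulator gene Cr1l -0.10, none of which passed (adjusted p 0.27 to 0.819), while Cfb gave -0.41, short of the fold for a call (adjusted p = 0.0486). Cross-binding of the Cd55 and Cd55b probes was not tested. Over the whole list of ligands and partners, 22 of 23 genes were tested, and the median was -0.28. Of those tested, 5 were called lower (among them F10, F7, Tfpi2 and Itgb2) and 1 higher (Pdgfb), against 8.38% and 10.3% of all genes. The F7 call uses Zip13-KO values that were not well measured, as given above.

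Other stromal genes lay below 0 for 11 of the 14 tested, against 7661 of all 15306 genes. Of these genes, 5 were called lower and none higher, against 8.38% and 10.3% of all genes. The median was -0.68, with Cd81, a tetraspanin, highest at 0.20 (adjusted p = 0.107). Pdpn, a mucin-like glycoprotein of fibroblastic and lymphatic cells, gave 12.54, 11.72 and 10.68 in the WT and 9.77, 9.93 and 10.24 in Zip13-KO (difference -1.66, adjusted p = 0.0351). Cd44, the hyaluronan receptor also abundant on leukocytes, fell by 1.07 (adjusted p = 0.00457), with WT arrays between 10.82 and 11.15 and Zip13-KO arrays between 9.85 and 9.93. Ly6c1 was given above, Thy1, the antigen CD90 of fibroblasts and T cells, fell by 0.77 (adjusted p = 0.0269), and Cd9, another tetraspanin, by 0.60 (adjusted p = 0.0225). Over the 5 lists of related genes, 73 of 74 were tested and 19 called (26.0%, against 18.7% of all genes), 12 lower and 7 higher. The 12 include F7, which was not well above background in Zip13-KO. With the arrays scaled to their 75th percentile the split was 10 lower and 11 higher. Over all genes it was 1282 lower and 1576 higher, and 1212 lower and 1768 higher after that scaling.

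**Figure D3:**
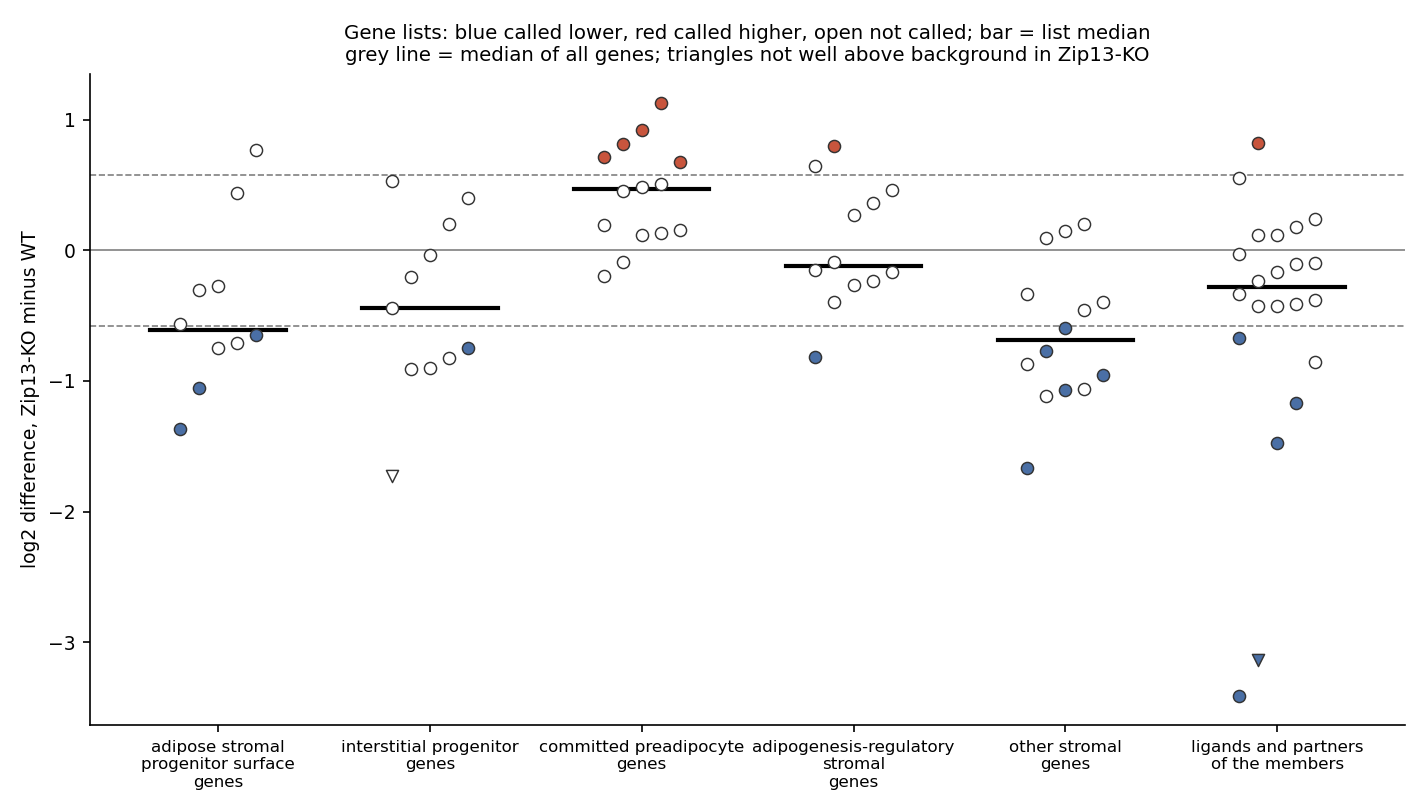
Zip13-KO minus WT difference (log2) of each gene of the progenitor surface genes and the 5 lists of related genes; blue points were called lower, red points called higher, open points not called, triangles were not well above background in Zip13-KO, black bars are list medians and the grey line is the median of all genes. The committed preadipocyte list has its median at 0.47 and the other stromal genes at -0.68.

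To see how the members stood against each other, each was set against Pdgfra on the same array, a comparison chosen after the values were seen. The 9 ratios share the Pdgfra value, and the smallest two-sided p of the exact permutation test with 3 arrays against 3 is 0.10. Since Pdgfra itself was called lower, a gene without a change lies above 0 on this scale: the median over the other 15305 genes was 0.65, with all 3 Zip13-KO arrays above the WT arrays for 57.6% of genes and below them for 2.8%. Ly6a lay lower relative to Pdgfra in all 3 Zip13-KO arrays (-0.84 to -0.63) than in any WT array (-0.28 to 0.15), a difference of -0.72 (exact permutation p = 0.10). Dpp4 differed by -0.40, again with no overlap. Pi16 (-0.06), Cd34 (-0.10), Icam1 (0.09) and Cd55 (0.35) had overlapping genotypes on this scale. Pdgfrb gave 0.38, F3 1.09 and Dlk1 1.42, each with all Zip13-KO arrays above the WT arrays, as for most genes on this scale, and the Pdgfrb value was below the median of all genes. The F3 ratio ran from -0.007 to 0.012 around the WT mean in the WT, the narrowest of the 9, and from 0.45 to 1.51 in Zip13-KO. With 3 arrays per genotype this cannot show whether the 2 genes vary together. How many other genes lay as close to Pdgfra in the WT was not tested.

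**Figure D4:**
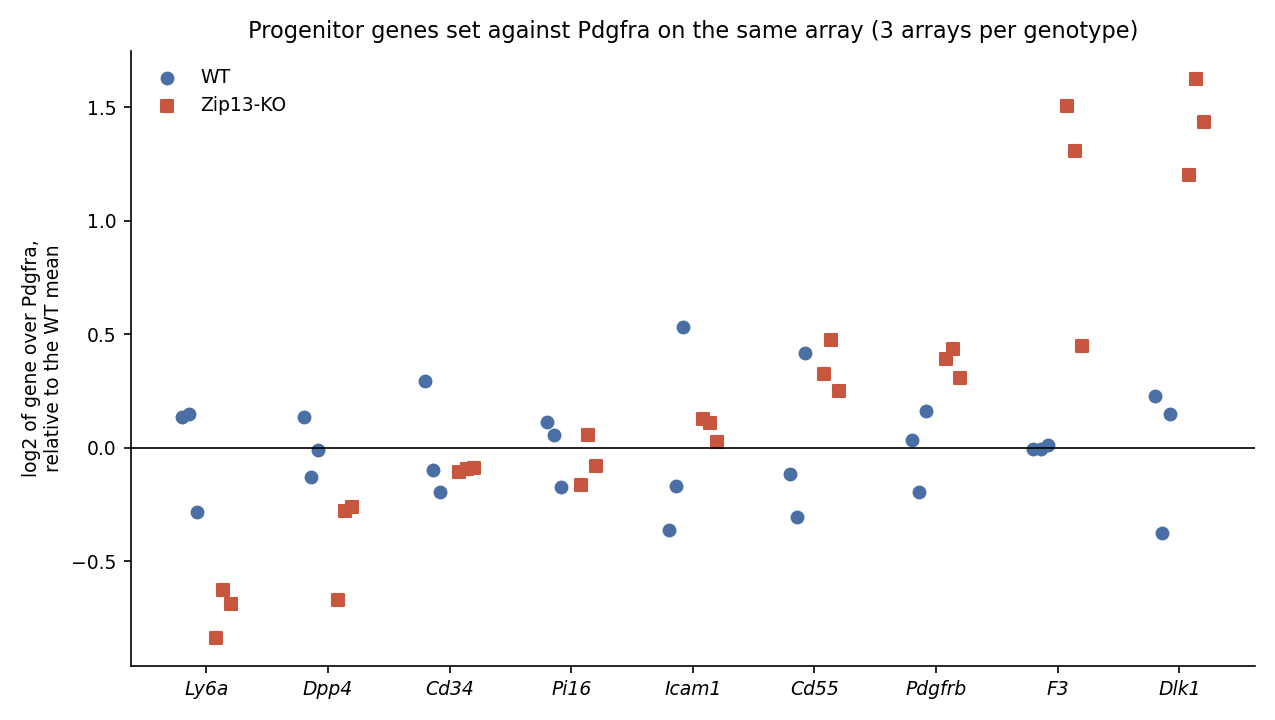
Log2 ratio of each gene to Pdgfra on the same array, relative to the WT mean, in 3 WT (blue circles) and 3 Zip13-KO (red squares) arrays, ordered by the difference between genotypes. Ly6a and Dpp4 lie below the WT arrays, Pdgfrb, F3 and Dlk1 above them, and the other 4 genes overlap, while the median of all other genes on this scale was 0.65.

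The remaining cell types of iWAT gave the following background. None of the 8 tested mammary epithelium markers was called (of 10, median 0.19, from Wfdc18 at -0.75 to Krt5 at 0.89), and 3 of 6 mesothelium markers were tested, of which Lrrn4 rose by 1.47 while Msln gave -1.01 (adjusted p = 0.0829, median of the list -0.25). Of 6 Schwann cell markers, S100b, also an adipocyte gene, rose by 0.84 and Mbp gave -0.18 (median 0.55). The 8 skeletal muscle markers had a median of 0.73 with none called, from Mylpf at 0.15 to Ckm at 1.15 (adjusted p = 0.32). By array, the median of the 10 progenitor genes was 0.40, -0.06 and -0.37 from the WT mean in WT replicates 1 to 3 and -0.56, -0.75 and -0.48 in Zip13-KO. The myeloid median was 0.42, -0.07 and -0.26 in the WT and -1.38, -1.59 and -0.98 in Zip13-KO, so both lists were highest in WT replicate 1 and lowest in Zip13-KO replicate 2. The adipocyte median ran -0.46, 0.29 and 0.13 in the WT, lowest in WT replicate 1, and 0.66, 0.56 and 0.67 in Zip13-KO. What part a shift of cell types has in the progenitor values was not tested.

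**Figure D5:**
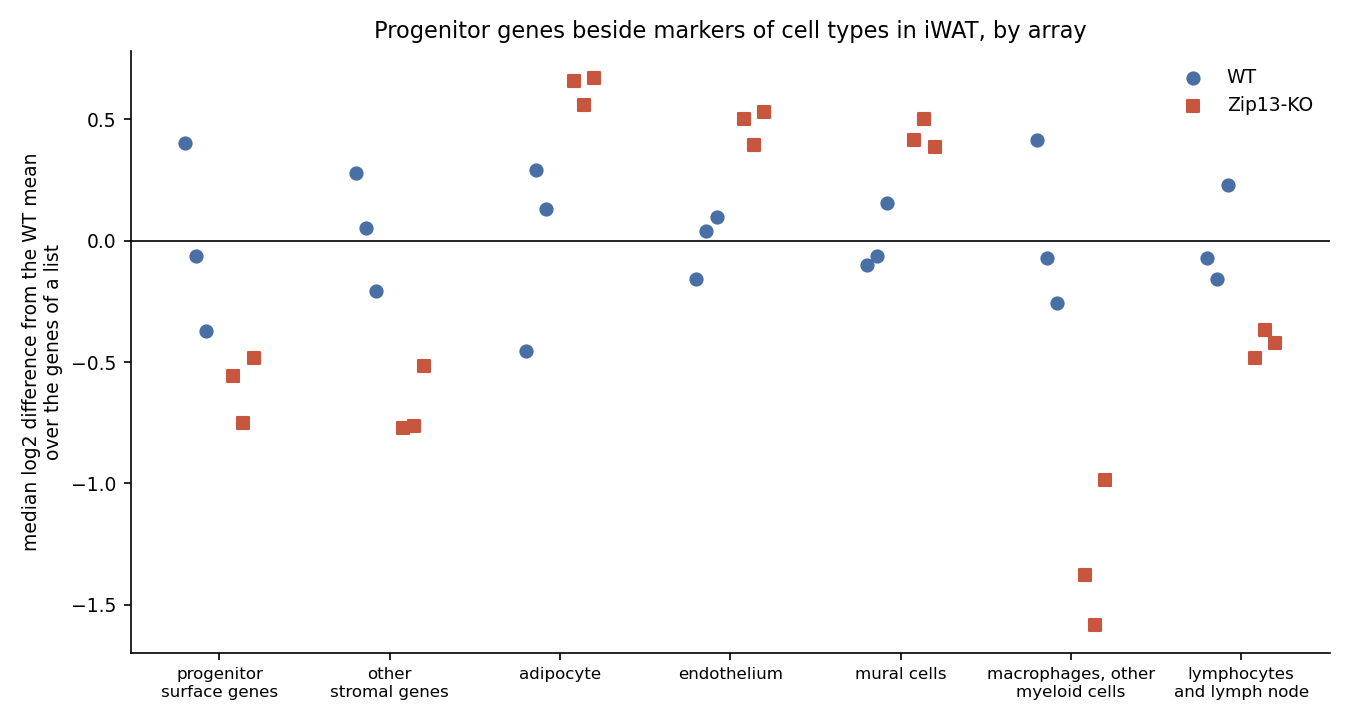
Median log2 difference from the WT mean over the genes of each list, for the progenitor surface genes, the other stromal genes and 5 marker lists, in 3 WT (blue circles) and 3 Zip13-KO (red squares) arrays. Zip13-KO arrays lie below the WT arrays for progenitor, other stromal, myeloid and lymphocyte lists, and above them for adipocyte, endothelial and mural lists.

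The promoters of Pdgfra and Dpp4, both called lower, and of F3, which was not, are shown to compare the sequence near their starts, since C/EBP factors act in adipogenesis. They run from 250 bases before to 50 bases after the start in RefSeq GRCm38.p6, 5′ to 3′ on the strand of the gene, at chr5:75152001-75152300 (+), chr2:62412182-62412481 (-) and chr3:121723287-121723586 (+). Capitals mark matches to 4 short motifs on either strand and at any position in the window, so a match need not lie where such a motif works. The motifs are the C/EBP site TTGCNNAA, the CCAAT box, the TATA box letters TATAAA and the SP1-type motif GGGCGG.
Pdgfra: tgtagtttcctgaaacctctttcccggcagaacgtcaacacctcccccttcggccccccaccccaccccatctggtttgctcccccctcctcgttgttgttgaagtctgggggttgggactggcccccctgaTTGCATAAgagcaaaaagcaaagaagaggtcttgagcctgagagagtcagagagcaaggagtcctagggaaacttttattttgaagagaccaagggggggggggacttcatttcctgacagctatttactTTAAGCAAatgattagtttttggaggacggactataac
Dpp4: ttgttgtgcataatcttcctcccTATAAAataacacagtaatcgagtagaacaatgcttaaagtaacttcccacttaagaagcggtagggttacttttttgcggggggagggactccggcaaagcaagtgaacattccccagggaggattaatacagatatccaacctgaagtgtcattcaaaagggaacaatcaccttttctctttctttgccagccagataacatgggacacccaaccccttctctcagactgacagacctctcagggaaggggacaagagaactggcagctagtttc
F3: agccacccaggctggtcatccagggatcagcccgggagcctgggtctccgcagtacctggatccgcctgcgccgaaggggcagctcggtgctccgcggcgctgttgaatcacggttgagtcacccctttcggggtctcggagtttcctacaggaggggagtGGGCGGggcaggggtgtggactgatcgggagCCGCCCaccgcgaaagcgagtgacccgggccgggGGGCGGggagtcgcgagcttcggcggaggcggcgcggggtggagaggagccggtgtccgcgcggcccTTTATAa
The windows of 8 of the 10 members were searched, and those of Ly6a and Pdgfrb were not used here. TTGCNNAA stood 2 times in the Pdgfra window and in none of the other 7, against 10.8% of all 32851 promoters. TATAAA stood in 3 of the 8 (Dpp4, Icam1 and F3) against 13.6% of all, GGGCGG in 3 (Icam1, F3 and Cd55) against 35.7%, and CCAAT in 1 (Pi16) against 37.4%. These are matches of letters in a window and not measured binding.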

How the data were processed

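The iWAT RNA of the 2 genotypes, labelled with Cy3, was read on 6 Agilent 1-colour mouse arrays (SurePrint G3 8x60K). The deposited scanner files, made by the authors with Feature Extraction 11.5.1.1, hold background-corrected processed intensity, not normalized between arrays. The deposited values table holds quantile-normalized log2 values and was used as an alternative. The members and lists were chosen with earlier results of these data known.

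Control and outlier spots were left out, log2 of the processed intensity was taken, spots of a probe were averaged and arrays were quantile normalized. Probes were kept when all 3 arrays of a genotype, or of both, were well above background (33046 of 55681). Names came from RefSeq accessions compared without version (GRCm38.p6), and 28331 probes had one. The brightest kept probe stood for a gene. limma 3.58.1 in R 4.3.3 was run over 15306 genes. The genes named are all members, the extremes and up to 4 strongest calls of each list, and every called ligand or partner except 1 that is not reported here. The signal over background and the number of arrays limit the precision. The limma steps were tested on simulated data. Same-numbered replicates did not deviate together over all genes, which does not exclude a pairing, and no pairing was used in the main fit. The alternatives were other scalings, background corrections, filters, probe summaries, tests, thresholds, the replicate block, the slide column and leaving out each array.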

Additional observations from a re-analysis of the deposited data

How the results depend on the processing

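In 20 other settings 167 differences of the 10 members kept their side of the threshold and their direction, 24 others fell short of it, 9 passed it and 0 reversed. Ly6a was called in 14 of the 20 settings, Dpp4 in 13, Pdgfra in 9, Icam1 in 5, Pi16 in 2, Cd34 and Dlk1 in 1 each, and Pdgfrb, F3 and Cd55 in 0. The number of members called, 3, became 0 with the methods' t-test after adjustment (run alone, without the median-ratio test that the methods combine with it), 0 with the replicate block, 0 with slide column as a term and 0 at an adjusted p under 0.01, while the methods' t-test without adjustment gave 3, and it ranged from 0 to 5 when 1 array was left out. It was 0 without Zip13-KO replicate 2, 1 without Zip13-KO replicate 1 (Icam1) and 5 without WT replicate 3, when Cd34 and Pi16 were added. With the block, the adjusted p was 0.0502 for Ly6a, 0.07 for Dpp4 and 0.0867 for Pdgfra. Over all genes, the deviations of same-numbered arrays correlated at -0.02, 0.04 and -0.08. This gave no sign of a pairing but cannot exclude one, since each genotype has 3 arrays. Of the related genes, 19 called became 10 with the replicate block, 1 (F7) with slide column as a term and 7 to 25 when 1 array was left out. F7, counted among the 19, was not well above background on the Zip13-KO arrays, so its call uses values that were not well measured. Of the member probes, 2 called became 0 without the background filter, 0 with the replicate block and 0 to 6 when 1 array was left out: 5 without WT replicate 1, 6 without WT replicate 3 and 0 without Zip13-KO replicate 1 or 2. The Pdgfra call was also lost with scaling to the 75th percentile (adjusted p = 0.0504) and without the filter (adjusted p = 0.0827). The causes were not tested, apart from the fewer arrays or degrees of freedom that leaving out an array and the added terms bring.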
